A study of Macaca fascicularis with 48 samples.

Results

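Lumbar spinal cord was compared between cynomolgus monkeys (Macaca fascicularis) dosed with GS-8873 and control monkeys. GS-8873 is a compound that the submitters describe as acting against hepatitis B virus messenger RNA. The members are the 8 libraries titled as lumbar cord, 4 control and 4 treated, of 48 libraries in the series. Treated animals received 6 mg/kg/day by oral gavage for 13 weeks and control animals 0 mg/kg/day on the same schedule. Each group held 2 males (replicates 1 and 2) and 2 females (replicates 3 and 4), all separate animals. The same 8 animals gave cervical, thoracic and lumbar cord. The labels give no age and no genetic modification, and no animal is described as infected. Of the 8 libraries, 6 held at least 10 CPM of MOG (CPM, a gene's counts scaled to a library of fixed size), a protein of central myelin, and each comparison below was made with all 8 and again with these 6.

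The lumbar cord drives the hind limbs and receives their sensory input. Its grey matter holds motor neurons, which use acetylcholine, and interneurons that use glutamate, GABA or glycine, while its white matter is mostly axons wrapped in the myelin of oligodendrocytes. Central myelin is rich in cholesterol, most of which is made inside the nervous system, by the mevalonate arm of synthesis up to isoprenoids and the sterol arm from squalene to cholesterol, both under the transcription factor SREBP2. Microglia, the resident macrophages, and astrocytes change their gene expression after injury to neurons or myelin. Nerve roots leave the cord on either side and are wrapped by Schwann cells, whose myelin contains PRX.

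The defining markers of cord were nearly absent from a pair of libraries. MOG stood at 0.258 CPM of total counts in control replicate 1 and at 0.087 CPM in treated replicate 1, against 330.03 to 657 CPM in the other 6. The water channel of astrocytes, AQP4, was at 2.02 and 0.957 CPM in that pair, and the choline acetyltransferase gene CHAT had 0 counts in both. PRX reached 5257 and 4743 CPM there, and DCN, a matrix gene of fibroblasts, 2789 and 1590 CPM. Control replicate 2 also stood high for Schwann cell genes, with 1964 CPM of PRX against 39.6 to 329.8 CPM in the other 5 libraries with MOG.

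Position along the cord was read from HOX genes, whose members of higher number are expressed further toward the tail. HOXD10 stood at 31.6 to 54.6 CPM in 5 of the 6 libraries with MOG and at 0.715 CPM in treated replicate 2, while all 16 cervical and thoracic libraries held at most 0.091 CPM. HOXC11 gave 5.22 to 9.74 CPM in the same 5 libraries and 0.048 CPM in treated replicate 2. HOXA9 (47.3 CPM) and HOXC10 (32.4 CPM) were present in treated replicate 2. Its HOXD10 and HOXC11 levels go against its lumbar label, and its place along the cord was not tested further. Treated replicate 4 stood apart in another way, with 27.04% of its counts from the mitochondrial genome, against 8.85% to 16.2% in the other 7. The mitochondrial share was 13.6% ± 3.26 in controls and 14.8% ± 8.36 in treated animals (SD, n = 4; exact two-sided permutation p = 0.886, where the smallest possible p is 0.0286). Control replicate 2 and treated replicate 4 carry the piece code SC6 in their labels and the other 6 libraries SC5, and the labels do not say what the codes mean. Total counts ran from 40855157 to 47081404 per lumbar library.

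**Figure D1:**
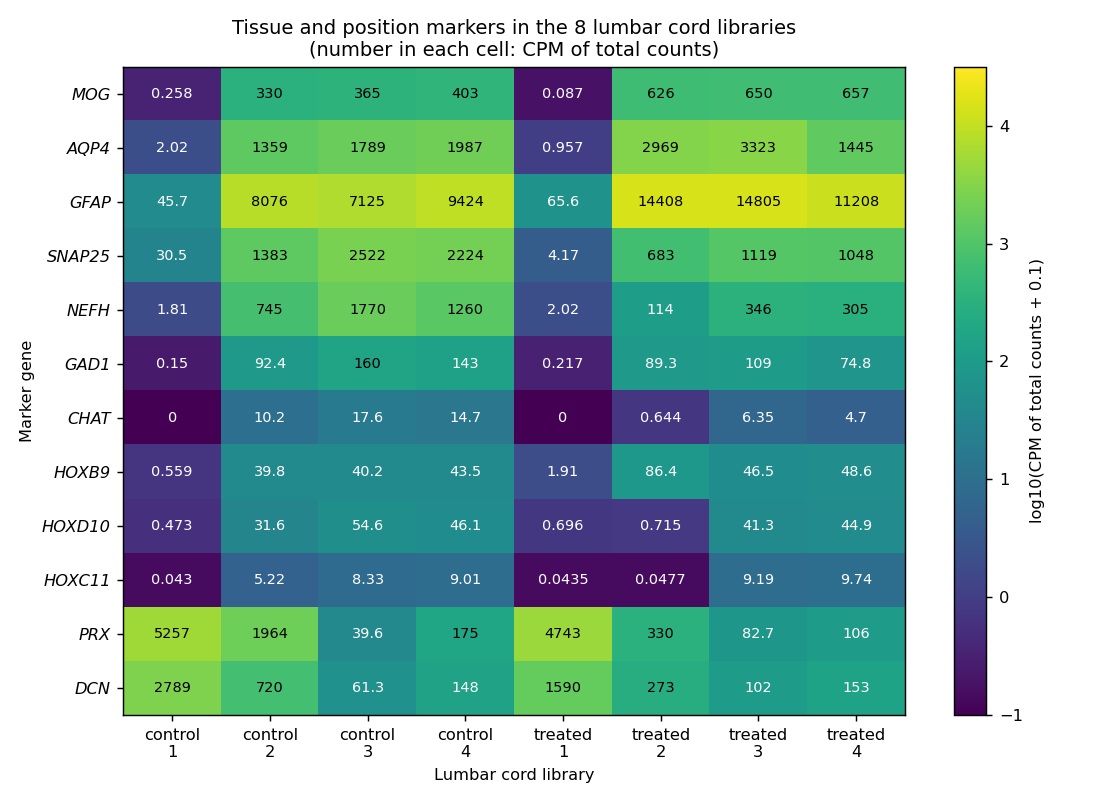
Levels of 12 marker genes (rows) in the 8 lumbar cord libraries (columns), as CPM of total counts printed in each cell and coloured on a log10 scale. Control replicate 1 and treated replicate 1 are dark for MOG, AQP4, SNAP25 and the HOX genes and bright for PRX and DCN, and treated replicate 2 is dark for HOXD10 (0.715 CPM) and HOXC11 (0.048 CPM).

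Across all genes, no difference between treated and control lumbar cord passed the main test, edgeR's quasi-likelihood test with sex as covariate and Benjamini-Hochberg adjustment. With 8 libraries 0 of 14361 genes passed (0%), the smallest adjusted p was 0.9999, and 250 genes (1.74%) had an unadjusted p under 0.05, 104 of them higher (0.724%) and 146 lower (1.02%). With 6 libraries 0 of 14365 passed (0%), the smallest adjusted p was 0.266, and 855 genes (5.95%) had an unadjusted p under 0.05, 366 of them higher (2.55%) and 489 lower (3.4%) in treated animals. Some other tools called more. With 8 libraries DESeq2 called 6 genes, with WIF1, CXCL9, UTS2 and GABRR3 lower (0.0279% of genes) and SERPINA3 and CHIT1 higher (0.0139%) in treated animals, and limma voom called 0. With 6 libraries DESeq2 called 113, of which 43 were higher (0.299%) and 70 lower (0.487%), limma voom called 0, and limma voom with sample quality weights called 633. UTS2 and GABRR3 are named only because DESeq2 called them, and, like PRDM12, SCN10A, MAP1B, CD163 and the HOX genes above, were chosen after their values were seen. Values below therefore describe these libraries, and a gene is called higher or lower by its fold change without having passed edgeR. In bulk tissue, fewer cells of a type and less RNA per cell cannot be told apart.

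HMGCS1 and IDI1, enzymes of the mevalonate arm of cholesterol synthesis, were lower in treated lumbar cord, including in the pair of libraries without cord markers. HMGCS1, which makes HMG-CoA (chromosome 6, 43908492 to 43931552 on Macaca_fascicularis_5.0), stood at 209, 207, 195 and 227 CPM in control replicates 1 to 4 and at 41.3, 99.2, 117 and 83.5 CPM in treated replicates 1 to 4. These levels and those that follow are CPM scaled by TMM, edgeR's correction for library composition, unless CPM of total counts is named. The groups did not overlap, and treated replicate 1 was the lowest library. The log2 fold change of HMGCS1 was -1.32 ± 0.31 (SE) with 8 libraries and -1.04 ± 0.21 with 6. In the 4 female libraries alone, a comparison added after seeing the data that leaves out both control replicate 2 and treated replicate 2, HMGCS1 gave -1.04. IDI1, which isomerises the isoprenoid unit, ran from 179.8 to 269 CPM in controls and from 99.0 to 145 CPM in treated animals. Of the 9 genes listed for the mevalonate arm, 7 were in the table and all 7 were tested. HMGCS1 and IDI1 were among the 3 that did not overlap between groups, all lower, with 8 and with 6 libraries, while non-overlap in that direction held for 0.884% of all genes with 8 libraries and 7.11% with 6. The other 4 overlapped, and the list's median was -0.28 with 8 libraries and 0.01 with 6, and -0.63 and -0.33 without treated replicate 4.

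In the sterol arm the lower values ran through more of the steps. SQLE, the squalene epoxidase, stood at 127, 102, 96.9 and 109 CPM in the 4 controls and at 45.997, 56.1, 61.3 and 73.5 CPM in the 4 treated animals. MSMO1, a sterol demethylase, stood at 545, 389, 278 and 304 CPM in controls and at 171, 125, 173 and 211 CPM in treated animals. Every treated library lay below every control for both genes, and control replicate 1 was the highest library for each. With 6 libraries MSMO1 gave -0.91 ± 0.29, and -0.55 in the 4 female libraries. CYP51A1, the lanosterol demethylase, had log2 fold changes of -0.90 ± 0.22 with 8 libraries and -0.78 ± 0.19 with 6. DHCR7, the last reductase of one branch, had -1.19 ± 0.32 and -0.85 ± 0.32, and -0.45 in the 4 female libraries. Of 14 members, all tested, 12 were negative with 8 libraries (median -0.59) and 12 with 6 (median -0.51), against 51.2% and 48.9% of all genes (positive values made up 48.8% and 51.1%) and medians of all genes of -0.0085 and 0.0106. Without overlap and lower were 7 members with 8 libraries and 8 with 6, against 0.884% and 7.11% of all genes. The positive members were ERG28 and TM7SF2. TM7SF2, a sterol reductase, stood at 50.1 to 60.1 CPM in the 3 controls with MOG and at 66.7, 62.8 and 112 CPM in the 3 treated libraries with MOG. Leaving out treated replicate 4 brought its log2 fold change with 6 libraries from 0.58 to 0.28. The summed level of the sterol arm ran from 1275 to 2310.2 CPM in controls and from 889 to 1074 CPM in treated animals.

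Genes that regulate and carry sterol were lower as well. SREBF2, which encodes SREBP2, stood at 325, 257, 254 and 258 CPM in controls and at 197, 161, 161 and 132 CPM in treated animals. Its log2 fold change was -0.75 ± 0.18 with 8 libraries and -0.73 ± 0.18 with 6. STARD4, a carrier of cholesterol inside cells, ran from 46.9 to 63.7 CPM in controls and from 20.99 to 31.9 CPM in treated animals. The groups of both genes were apart in 8 and in 6 libraries. INSIG1, which retains SREBP in the endoplasmic reticulum and is itself an SREBP target, was at 32.04 to 44.96 CPM in the 3 controls with MOG and 16.2 to 26.5 CPM in the 3 treated libraries with MOG, and its log2 fold change with 6 libraries was -0.87 ± 0.20 (DESeq2 adjusted p = 0.0429).

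Genes of fatty acid synthesis were also mostly lower. ACLY, which makes cytosolic acetyl-CoA, had a log2 fold change of -0.94 ± 0.20 with 6 libraries and passed in DESeq2 (adjusted p = 0.016), with 378 to 565 CPM in controls and 213 to 283 CPM in treated animals. With 8 libraries its groups overlapped, because control replicate 1 held 164 CPM. ACACA, the acetyl-CoA carboxylase, and FASN, the fatty acid synthase, did not overlap in either set, with log2 fold changes of -0.66 ± 0.21 and -0.72 ± 0.19 with 8 libraries. Of 16 members tested, 13 were negative with 8 libraries (median -0.48) and 14 with 6 (median -0.58). Without treated replicate 4 the median with 6 libraries was -0.31. Genes of sterol export did not share the direction: 7 of 11 were positive in both sets (medians 0.26 and 0.37, and 0.12 in both sets without treated replicate 4). APOE, the main apolipoprotein of the nervous system, stood at 636, 500.4 and 545 CPM in the 3 controls with MOG and at 989, 835 and 1638 CPM in the 3 treated libraries with MOG. Its log2 fold change was 1.07 ± 0.33 and was 0.72 without treated replicate 4. ABCA1, the cholesterol exporter, ranged from 51.5 to 327 CPM over the 4 treated libraries, which overlapped the 4 controls (59.2 to 76.6 CPM).

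**Figure D2:**
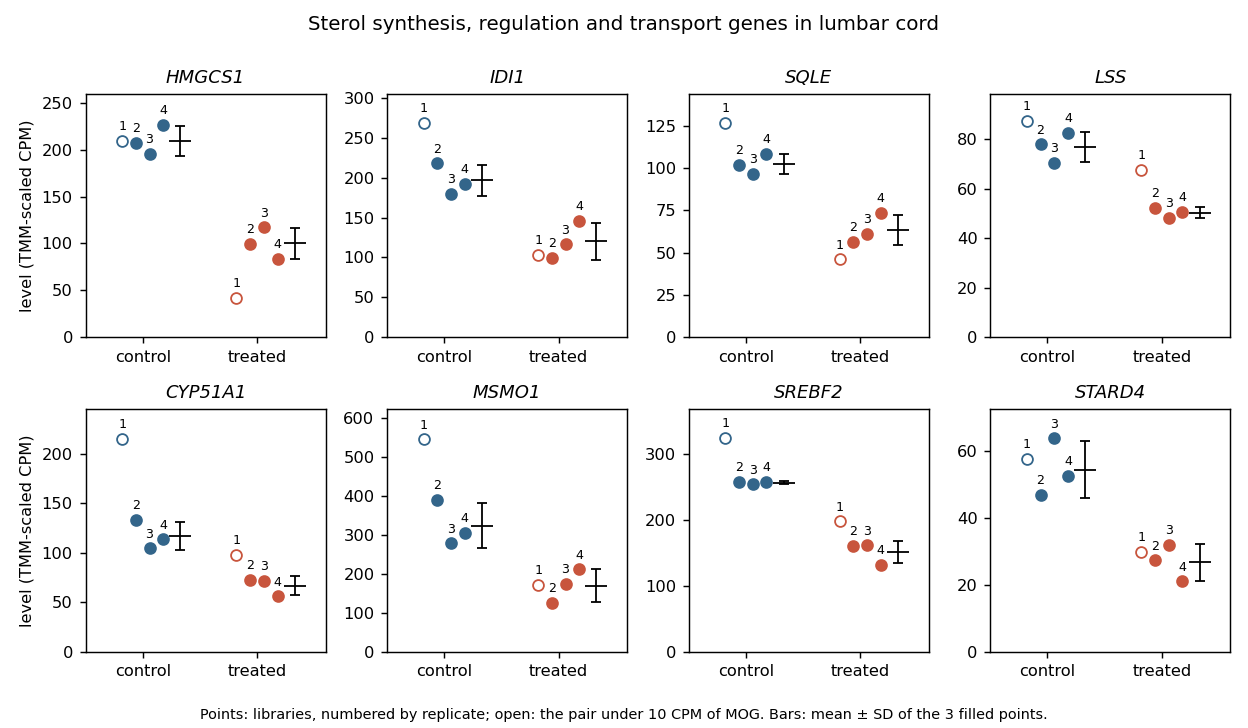
Levels of 8 genes of sterol synthesis, regulation and transport in TMM-scaled CPM (vertical axes from 0) by group, with 1 point per library. Open points are the pair of libraries under 10 CPM of MOG, bars are mean ± SD of the other 3, and for all 8 genes every treated point lies below every control point.

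Neuronal genes were lower in the treated libraries that held cord tissue. NEFH, the heavy neurofilament subunit of large axons (chromosome 10, 21996204 to 22006561), stood at 762, 1827 and 1286 CPM in control replicates 2 to 4 and at 102, 321 and 343 CPM in treated replicates 2 to 4. Control replicate 1 held 1.81 CPM and treated replicate 1 held 2.00 CPM, so that neither informs on neurons. The 3 treated libraries lay below the 3 controls, with a log2 fold change of -2.42 ± 0.28 (edgeR adjusted p = 0.452, DESeq2 adjusted p = 2.5e-12). With all 8 libraries the value was -2.55 ± 1.55, and it was -0.71 without control replicate 2. NEFM, the medium subunit, stood at 2295, 4704 and 3408 CPM in the same controls and at 568, 1583 and 1296 CPM in the same treated animals, and its log2 fold change was -1.64 ± 0.27. NEFL, the light subunit, named after its values were seen, had -1.51 ± 0.35 and its groups did not overlap either. Among the 4 female libraries, NEFH gave -2.19, NEFM -1.45 and NEFL -1.18. That comparison equals leaving out control replicate 2 or treated replicate 2 from the 6, because the sex term then absorbs the remaining male.

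The 3 subunits belong to a list of neuronal cytoskeleton and axonal transport, of which 23 of 26 genes were tested. All 23 were negative in both sets (medians -0.75 with 8 libraries and -0.76 with 6). The median with 8 libraries was -0.13 without control replicate 2, -1.47 without treated replicate 2, -0.49 without treated replicate 4 and 0.45 in the SC5 libraries. With 6 libraries 13 were lower without overlap (7.11% of all genes), 12 were lower at an unadjusted p under 0.05 (3.4% of all genes), and DESeq2 called 6 as lower (0.487% of all genes), namely NEFH, NEFM, NEFL, INA, MAP1B and DYNC1I1. In the 4 female libraries all 23 were again negative (median -0.95), and without treated replicate 4 the median with 6 libraries was -0.58. The summed level of the list ran from 16963 to 28423 CPM in the 3 controls with MOG and from 9980.0 to 13031 CPM in the 3 treated libraries with MOG.

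Genes of synaptic release followed. SNAP25, a protein of vesicle fusion, stood at 1416, 2604 and 2269.9 CPM in control replicates 2 to 4 and at 613, 1036 and 1179 CPM in treated replicates 2 to 4. The groups did not overlap, and the log2 fold change was -1.13 ± 0.22 (edgeR adjusted p = 0.694, DESeq2 adjusted p = 0.0007). NSF, which recycles the fusion complex, averaged 801 ± 197 CPM (SD, n = 3) in the controls with MOG and 328 ± 55.8 CPM in the treated libraries with MOG. The log2 fold change of NSF was -1.24 ± 0.19. SYT2, a calcium sensor of fast synapses, averaged 80.7 ± 30.7 CPM in the former and 23.03 ± 6.61 CPM in the latter, with a log2 fold change of -1.73 ± 0.23. Of 14 pan-neuronal genes, 12 were negative in both sets (medians -0.73 and -0.70), and 5 were lower without overlap in the 6 libraries (7.11% of all genes). The list's summed level overlapped, at 5259 to 8559 CPM in the controls with MOG and 2786 to 5890 CPM in the treated libraries with MOG. The median with 8 libraries was 0.68 without control replicate 2, -1.69 without treated replicate 2 and 1.39 in the SC5 libraries.

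By transmitter type the values were unequal. CHAT, the enzyme of acetylcholine synthesis, stood at 10.4, 18.2 and 15.002 CPM in control replicates 2 to 4 and at 0.578, 5.88 and 5.29 CPM in treated replicates 2 to 4, and the groups did not overlap. Treated replicate 2, the library without HOXD10, was the lowest. The log2 fold change of CHAT was -2.30 ± 0.59, and -1.53 in the 4 female libraries, which leave out control replicate 2 as well. SLC5A7, the choline transporter, showed the same order, at 97.7, 296 and 170.1 CPM in controls and 1.80, 75.8 and 53.02 CPM in treated animals. Its log2 fold change was -2.92 ± 0.89 and was -1.82 in the 4 female libraries. Of 11 genes of motor neurons and cholinergic cells, 8 were negative with 6 libraries (median -0.70, and -0.38 in the 4 female libraries). That list's summed level overlapped, at 1060 to 1611 CPM in the controls with MOG and 1115 to 1416 CPM in the treated libraries with MOG. Among inhibitory genes, the glycine transporter SLC6A5 had -0.95 ± 0.21 and the GABA enzyme GAD1 -0.55 ± 0.20, each with overlapping groups, and 10 of 13 members were negative (median -0.45, and -0.71 in the 4 female libraries). The inhibitory list's summed level overlapped too, at 889 to 1526 CPM in the controls with MOG and 875 to 1013 CPM in the treated libraries with MOG. SLC17A6, the vesicular glutamate transporter of cord neurons, averaged 141 ± 38.1 CPM (SD, n = 3) in the controls with MOG and 85.01 ± 10.1 CPM in the treated libraries with MOG. The list of glutamate and dorsal horn genes that holds SLC17A6 was positive in 12 of 14 members (median 0.30), with SLC17A6 1 of the 2 negative members. In the 4 female libraries 8 of the 14 were positive (median 0.13). With 8 libraries CHAT gave -2.81 ± 1.70, SLC6A5 -0.93 ± 1.83, GAD1 -0.49 ± 1.64 and SLC17A6 -0.63 ± 1.80. The medians with 8 were -0.70 for the motor neuron list, -0.38 for the inhibitory list and 0.29 for the glutamate list. When 1 library was left out they ran from -1.19 to 0.61, from -2.15 to 0.69 and from -0.99 to 1.31.

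Markers of other tissue were set beside the neuronal genes. The summed level of 15 Schwann cell genes ran from 1264 to 15224 CPM in the 3 controls with MOG and from 1508 to 2690 CPM in the 3 treated libraries with MOG, with control replicate 2 the highest, and 13 of the 15 were negative (median -0.34). In the 4 female libraries 11 of the 15 were positive (median 0.18). In the 2 female controls, at 1264 and 2197 CPM, and the 2 female treated libraries, at 1508 and 2247 CPM, the sums interleaved. PRDM12 and SCN10A, which define neurons of the dorsal root ganglia, were at most 0.147 and 0.386 CPM of total counts in the 8 libraries. Of 13 listed genes of ganglion sensory neurons tested with 6 libraries, 9 were negative and 4 positive (median -0.22). CALCA gave -2.52 ± 0.94 and P2RX3 0.77 ± 0.31. The list's summed level was 819 to 1056 CPM in the controls with MOG and 476 to 1022 CPM in the treated libraries with MOG. The mitochondrial share was 15.2% ± 0.950 in the 3 controls and 16.4% ± 9.45 in the 3 treated libraries (SD, n = 3; exact two-sided permutation p = 1, where the smallest possible p is 0.1). The summed level of the neuronal cytoskeleton list was 9985 CPM in treated replicate 4, the library with 27.04%, and 9980.0 and 13031 CPM in treated replicates 2 and 3. The part of Schwann cell RNA, of the mitochondrial share and of the mix of grey and white matter in the neuronal values was not tested.

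**Figure D3:**
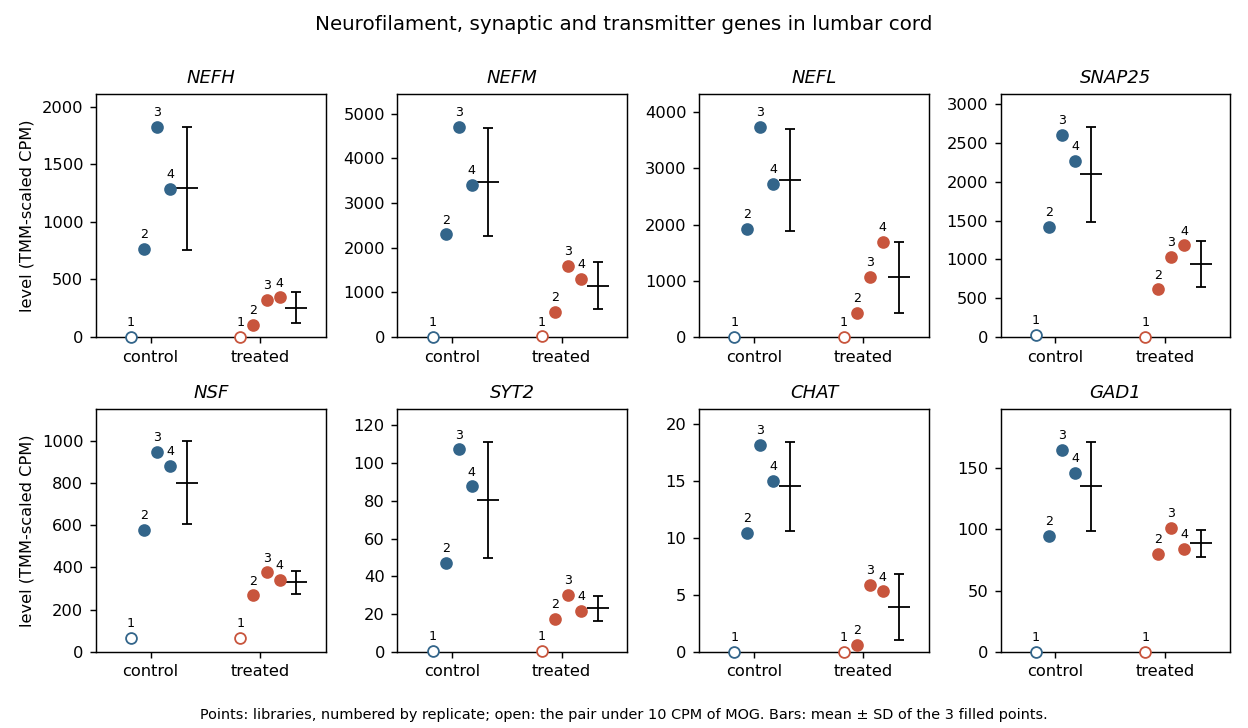
Levels of 8 neuronal genes in TMM-scaled CPM (vertical axes from 0) by group, with 1 point per library numbered by replicate. Open points, the pair under 10 CPM of MOG, lie near 0 for most genes. Filled treated points lie below filled control points for all genes shown except GAD1, whose groups overlap, and bars are mean ± SD of the 3 filled points.

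SERPINA3 and CHI3L1, 2 genes linked to reactive astrocytes, were much higher in the treated libraries that held cord tissue. SERPINA3, a secreted protease inhibitor of the acute phase that reactive astrocytes make (chromosome 7, 159657730 to 159669823), stood at 14.9, 31.4, 18.4 and 14.05 CPM in the 4 controls and at 19.3, 318, 379.8 and 319 CPM in the 4 treated animals. Each of the 3 treated libraries with MOG was more than 10 times the highest control, and treated replicate 1, without cord markers, lay within the control range. The log2 fold change was 3.65 ± 0.87 with 8 libraries and 4.10 ± 0.34 with 6, where the edgeR adjusted p was 0.266 and the DESeq2 adjusted p 2.3e-29. In the 4 female libraries it was 4.47. Over the 17 alternatives run on the 6 libraries the adjusted p ran from 2.3e-29 to 1. Leaving the SC5 fit uncounted, SERPINA3 passed in DESeq2 and in limma voom with quality weights. The SC5 fit gave 4.57 and rests on 1 treated library, because the sex term absorbs treated replicate 2, the only male there. CHI3L1, a secreted chitinase-like protein, was at 52.2, 15.99 and 45.4 CPM in the 3 controls with MOG and at 253, 199 and 171 CPM in the 3 treated libraries with MOG. CHI3L1 thus had a log2 fold change of 2.51 ± 0.42. GFAP, the intermediate filament of astrocytes, averaged 8414 ± 1138 CPM (SD, n = 3) in those controls and 13086 ± 559.8 CPM in those treated libraries with no overlap, and its log2 fold change was 0.67 ± 0.26. The rest of the reactive list was smaller in size: 13 of 17 members were positive with 6 libraries (median 0.51, between 0.33 and 0.89 when 1 library was left out). With 8 libraries 14 of 17 were positive (median 0.17, between 0.0058 and 0.63 when 1 library was left out). Of the list 2 members, SERPINA3 and CHI3L1, passed in DESeq2 as higher, where 0.299% of all genes did. General astrocyte genes were not higher as a list, with 9 of 14 negative in both sets (medians -0.14 and -0.17). Those medians were 0.04 and 0.11 without treated replicate 4, and with 8 libraries 0.35 without control replicate 2 and -0.93 without treated replicate 2.

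Genes of microglia and macrophages were higher in treated lumbar cord. CHIT1, the chitinase of activated macrophages (chromosome 1, 61675121 to 61692246), stood at 0.669, 1.46, 0.810 and 0.867 CPM in controls and at 1.502, 26.7, 9.42 and 25.4 CPM in treated animals. Treated replicate 1 exceeded the highest control by little, and the other 3 treated libraries by far. The log2 fold change was 4.04 ± 0.90 with 8 libraries and 4.34 ± 0.47 with 6 (edgeR adjusted p = 0.422, DESeq2 adjusted p = 3.5e-18). TREM2, a lipid-sensing receptor (chromosome 4, 129502823 to 129536748), stood at 11.2, 12.4, 10.1 and 11.1 CPM in controls and at 15.9, 25.4, 20.98 and 36.1 CPM in treated animals. IRF8, a transcription factor of the lineage, stood at 15.8, 11.01, 14.99 and 13.3 CPM in controls and at 16.999, 27.3, 26.1 and 24.2 CPM in treated animals. For both genes no treated library overlapped the controls, and treated replicate 1 was the lowest of the treated. In the 4 female libraries the log2 fold changes of CHIT1, TREM2 and IRF8 were 4.42, 1.48 and 0.87, and CHIT1 gave 3.85 without treated replicate 4.

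For GPNMB, a membrane protein of lipid-laden macrophages, the pair without cord markers lay high in both groups. It stood at 46.97, 15.7, 7.10 and 8.67 CPM in the 4 controls and at 88.6, 52.1, 25.8 and 17.4 CPM in the 4 treated animals, with control replicate 1 above 2 of the treated libraries. With 6 libraries its groups were apart (1.57 ± 0.25, DESeq2 adjusted p = 5.8e-05), and with 8 they overlapped (1.31 ± 0.38). MSR1, the scavenger receptor, behaved alike, at 18.6 and 16.8 CPM in the replicates 1, at 2.36 to 4.58 CPM in the other controls and at 7.02 to 13.7 CPM in the other treated libraries. P2RY12, a receptor of resting microglia, averaged 39.1 ± 6.35 CPM (SD, n = 3) in the controls with MOG and 73.2 ± 9.63 CPM in the treated libraries with MOG, with a log2 fold change of 0.93 ± 0.19. CD68, a lysosomal protein of phagocytes, averaged 14.3 ± 0.926 CPM in the former and 28.7 ± 7.19 CPM in the latter, with a log2 fold change of 1.01 ± 0.23. Of 20 microglia and macrophage genes tested of 21 listed, 18 were positive with 8 libraries (median 0.47) and 19 with 6 (median 0.75). Of them 3 were higher without overlap in the 8, where 0.738% of all genes were, and 10 in the 6, where 5.6% of all genes were. CD163, a receptor of macrophages around vessels, was the negative member. The median with 6 libraries was 0.61 without treated replicate 4, that of the 4 female libraries was 0.86, and that with 8 libraries was 0.28 without control replicate 3 and 0.78 without control replicate 1.

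Blood and lymphocyte genes gave no such values. Of 14 genes of T, B and NK cells tested, 6 were positive with 6 libraries (median -0.06, between -0.43 and 0.09 when 1 library was left out), and their summed level was 16.6 to 39.9 CPM in the 3 controls with MOG and 24.1 to 27.4 CPM in the 3 treated libraries with MOG. The summed level of haemoglobin and blood cell genes was 52.2 to 99.8 CPM in those controls and 19.4 to 247 CPM in those treated libraries, with treated replicate 4 the highest. Complement genes were mostly positive (7 of 8, median 0.65), but the median was 0.20 without treated replicate 4. CXCL9, a chemokine induced by interferon gamma, was at 19.3 CPM in control replicate 1 and 0.286 to 2.32 CPM in the other controls, and the 4 treated libraries held 0 to 0.129 CPM. Interferon-stimulated genes were not lower with it: 19 of 23 were positive with 6 libraries (median 0.32), and 12 of 23 with 8.

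**Figure D4:**
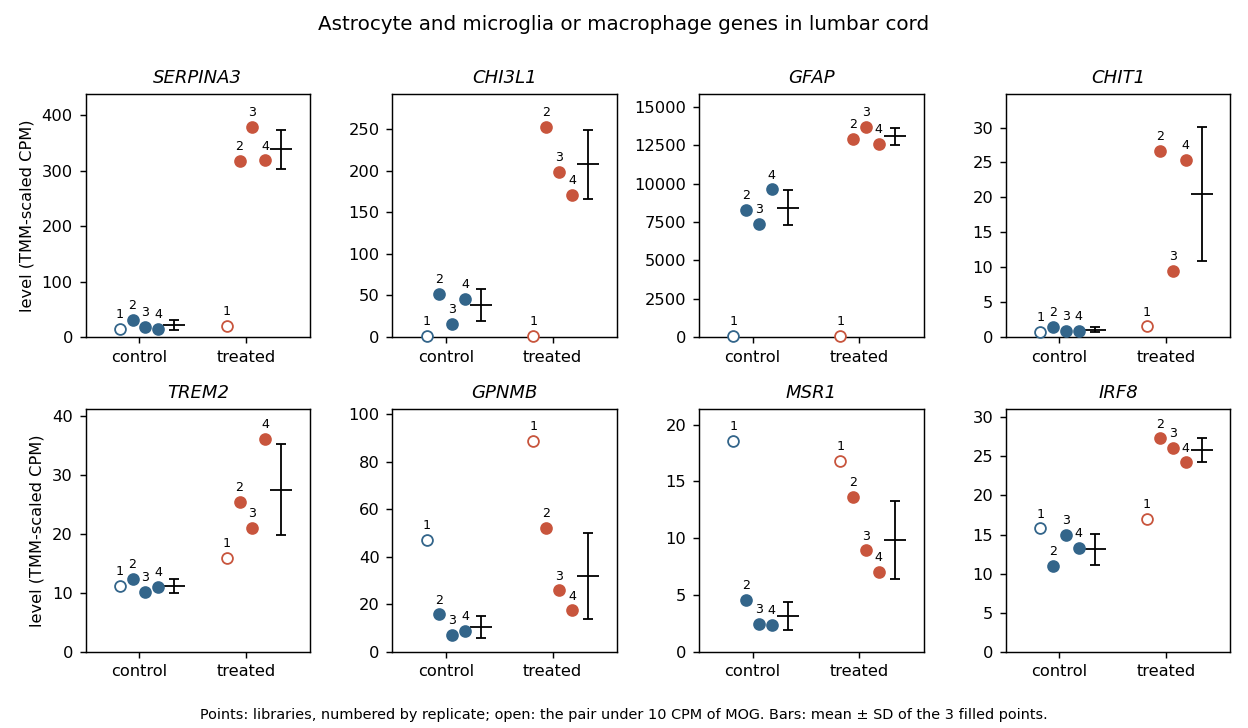
Levels of 3 astrocyte genes (SERPINA3, CHI3L1, GFAP) and 5 microglia or macrophage genes in TMM-scaled CPM (vertical axes from 0) by group, with 1 point per library. Filled treated points lie above filled control points in all 8 panels, open points mark the pair under 10 CPM of MOG, and bars are mean ± SD of the 3 filled points.

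Among single genes, WIF1, a secreted inhibitor of Wnt ligands (chromosome 11, 64113107 to 64186856), was lower in every alternative run. It stood at 10.6, 27.3, 55.1 and 60.6 CPM in controls and at 2.43, 4.35, 12.8 and 13.9 CPM in treated animals. The groups were apart in the 6 libraries and overlapped in the 8, where control replicate 1 (10.6 CPM) lay below treated replicates 3 and 4. Its log2 fold change was -2.30 ± 0.35 with 8 libraries and -2.26 ± 0.23 with 6, and between -2.42 and -1.91 in every alternative run on the 8. The other Wnt genes did not share this: 13 of 27 list members were negative with 6 libraries (median 0.08). SLIT3, an axon guidance ligand, had -1.16 ± 0.23 with 6 libraries and SLIT2, its relative, -1.40 ± 0.37. For SLIT2 control replicate 2 (197 CPM) was far above control replicates 3 and 4 (59.6 and 53.7 CPM), and the value was -0.99 without it. SCARA3, a scavenger receptor, did not overlap between groups with 8 libraries (165 to 222 CPM in controls and 63.0 to 133 CPM in treated animals; -1.05 ± 0.25).

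Vessel genes were mostly lower and myelin genes mostly higher. Of 18 endothelial and pericyte genes, 16 were negative in both sets (medians -0.52 and -0.65). Lower without overlap were 7 in the 6 libraries (7.11% of all genes) and 0 in the 8 (0.884% of all genes). The pericyte gene RGS5 gave -0.99 ± 0.35, the glucose transporter of the blood-brain barrier SLC2A1 -0.61 ± 0.18 and the junction gene ESAM -0.68 ± 0.23. Treated replicate 4 held the lowest RGS5 level (41.2 CPM), and without it RGS5 gave -0.61 and the list's medians were -0.30 with 8 libraries and -0.34 with 6. SLC7A5, an amino acid transporter of that barrier, stood at 88.5 to 119.9 CPM in the 3 controls with MOG and at 49.99 to 63.8 CPM in the 3 treated libraries with MOG. Its log2 fold change was -0.86 ± 0.17. Of 20 genes of central myelin and oligodendrocytes, 18 were positive with 6 libraries (median 0.32) and 19 with 8 (median 0.33). The median with 8 ran from -0.14 to 0.78 when 1 library was left out. Among libraries with MOG the list's summed level overlapped, at 29441.5 to 38112 CPM in controls and 28217 to 55268 CPM in treated animals. MOG itself, which chose the 6 libraries, was at 338, 377 and 412 CPM in the controls that hold it and 562, 602 and 739 CPM in the treated libraries that hold it. Its log2 fold change was 0.79 ± 0.20 with these 6 and 0.75 ± 1.92 with 8. As the gene of the selection, MOG is no separate evidence for the list, though it counts among the 18. All 35 ribosomal protein genes tested had positive values with 6 libraries (median 0.73), but the median was -0.10 without treated replicate 4, which held 21521 CPM of them against 5901 to 9032 CPM in the other 5. Of 15 genes of ependyma and motile cilia, 12 were negative with 6 libraries (median -0.60, and -0.33 in the 4 female libraries). With 8 libraries the median ran from -0.82 to 0.45 when 1 library was left out. Among libraries with MOG the summed level of these genes overlapped, at 233.9 to 303.4 CPM in controls and 206.7 to 359.6 CPM in treated animals.

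Genes tied to handling of poly(A) tails were examined because the poly(A) polymerases TENT4A and TENT4B act on RNA of hepatitis B virus. TENT4A stood at 14.98 to 20.3 CPM in the 4 controls and at 9.26 to 19.9 CPM in the 4 treated animals, and its log2 fold change was -0.17 ± 0.25. TENT4B had -0.09 ± 0.31 and ZCCHC14, the protein that recruits them to viral RNA, -0.08 ± 0.23, all with overlapping groups. Without treated replicate 4 the 3 values were 0.0051, 0.16 and 0.09. All 8 members of the list were negative in both sets (medians -0.17 and -0.18), and without treated replicate 4 the medians were 0.05 and 0.11.

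**Figure D5:**
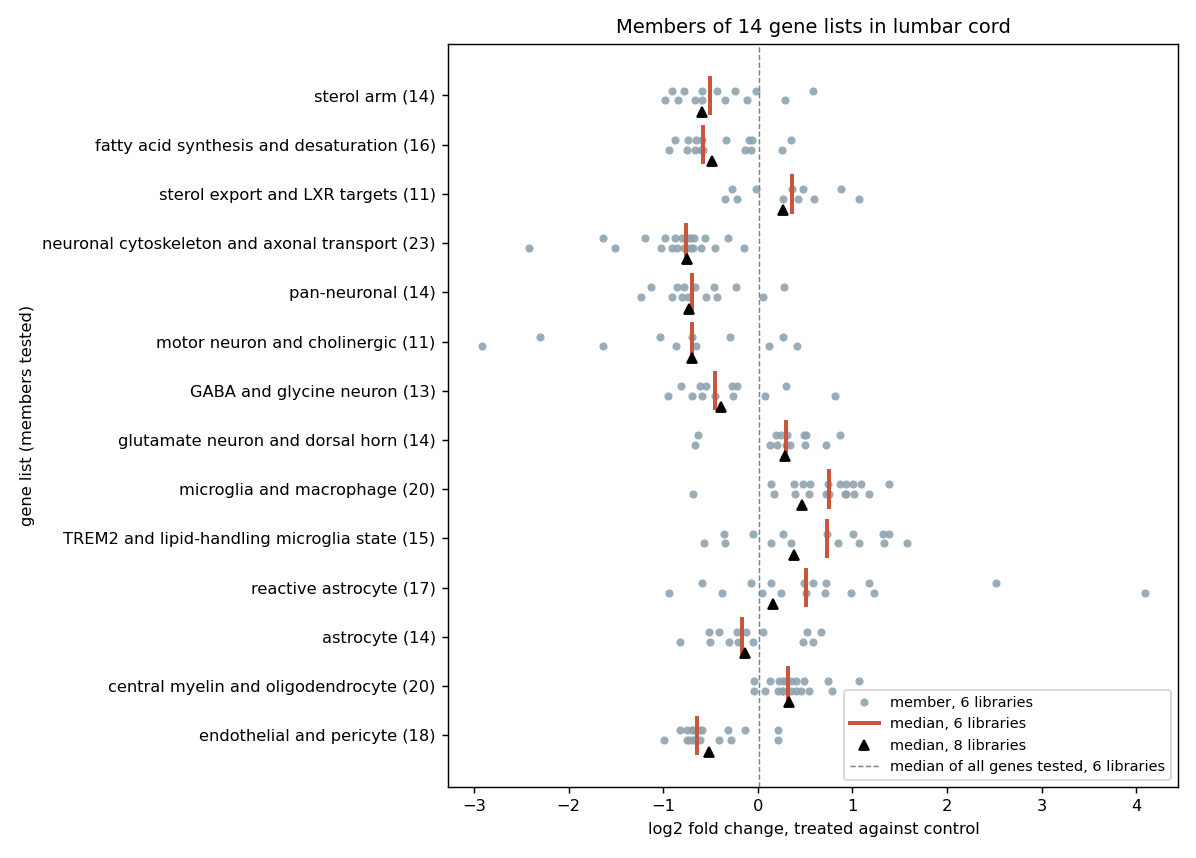
Log2 fold changes (horizontal axis, treated against control) of the tested members of 14 gene lists with 6 lumbar libraries, with 1 point per gene. Vertical bars are list medians with 6 libraries, triangles medians with 8, and the dashed line the median of all genes with 6 libraries (0.0106). The neuronal cytoskeleton list lies wholly to the left of 0 and the microglia list has 19 of 20 points to the right.

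Whether the treatment effect in lumbar cord differed from the mean effect in cervical and thoracic cord was tested in limma with animal as random block, since the regions came from the same 8 animals. All 24 cord libraries gave 0 calls among 14748 genes (0%) and 204 genes whose unadjusted p was under 0.05 (1.38%). The 22 libraries at or above 10 CPM of MOG gave 0 calls among 14803 genes (0%) and 489 genes whose unadjusted p was under 0.05 (3.3%). No gene was shown by this test to respond differently in the lumbar region. The smallest p without that pair was that of CHIT1, whose log2 fold change was -0.14 ± 0.49 in cervical and 0.18 ± 0.58 in thoracic cord, and whose lumbar effect exceeded the others by 3.94 ± 0.74 on the log2 scale (limma adjusted p = 0.684). SERPINA3 gave 0.39 ± 0.63 in cervical and 1.34 ± 0.40 in thoracic cord, and its excess in lumbar cord was 2.89 ± 0.64. Its level in control animals differed by region, at 13.8 to 30.7 CPM of total counts in lumbar, 29.96 to 233 CPM in cervical and 57.1 to 227 CPM in thoracic cord. The treated lumbar libraries with MOG (283 to 410.3 CPM) overlapped the treated thoracic ones (224 to 464 CPM).

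In the sterol arm 12 of 14 members were negative in cervical and 13 of 14 in thoracic cord. HMGCS1 had log2 fold changes of -1.80 ± 0.17 in cervical and -1.95 ± 0.41 in thoracic cord, against -1.32 with 8 and -1.04 with 6 lumbar libraries, and the medians of the sterol arm were -0.78 and -0.87, against -0.59 and -0.51. LSS, the lanosterol synthase, was the member of both cholesterol arms with the smallest p in the test of regions with 24 libraries. Its change in lumbar cord was -0.55 ± 0.16 with 8 libraries. The lumbar effect minus the mean of the others was 0.60 ± 0.15 (limma unadjusted p = 0.00086), a smaller fall in lumbar cord that did not pass adjustment. For NEFH the values were -0.35 ± 1.18 in cervical and -0.65 ± 0.59 in thoracic cord, where it ranged from 4.10 to 1169.9 CPM of total counts among cervical controls alone, and the lumbar effect minus the mean of the others, -2.54 ± 1.59, did not pass the test (limma unadjusted p = 0.127). TREM2 was positive in all regions (0.78 ± 0.29 in cervical and 0.63 ± 0.39 in thoracic cord). The neuronal cytoskeleton list was also mostly negative in the other regions, with 17 of 23 members in cervical (median -0.29) and 20 of 23 in thoracic cord (median -0.46), where 49.5% and 50% of all genes were negative. The other neuronal lists were of mixed sign. Glutamate and dorsal horn genes were positive in 8 of 14 members in cervical (median 0.04) and 9 of 14 in thoracic cord (median 0.23). Pan-neuronal genes were positive in 10 of 14 members in cervical (median 0.14) and 8 of 14 in thoracic cord (median 0.01), motor neuron and cholinergic genes in 10 of 11 (median 0.98) and 4 of 11 (median -0.14), and GABA and glycine genes in 6 of 13 (median -0.07) and 11 of 13 (median 0.17). The microglia list was positive in 13 and 14 of 20 members, with medians of 0.08 and 0.17. Central myelin genes were positive in 10 of 20 in cervical (median 0.0025) and 4 of 20 in thoracic cord (median -0.29). Reactive astrocyte genes were negative in 13 of 17 (median -0.45) and 10 of 16 (median -0.15). Vessel genes were negative in 15 of 18 (median -0.52) and 17 of 18 (median -0.35). Ependyma and cilia genes were positive in 13 of 15 in both regions (medians 0.41 and 0.60).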

How the data were processed

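Lumbar cord messenger RNA was read in 8 libraries, kept in RNAlater and made with a stranded kit per the labels' protocols. The authors' deposited values are raw counts, 1 row for each gene name. Per the file headers they come from featureCounts 1.4.6-p1 with Ensembl release 94 of Macaca_fascicularis_5.0, and the submitters' processing notes also list STAR 2.5.3a. The header's command sets no strand and no pair counting, so each mate counted once, and antisense or overlapping genes and near-identical copies can share reads. Columns were matched to samples by title, and 0 per-sample columns were left out. Of 16842 names, 140 lie on more than 1 chromosome.

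Samples were grouped by tissue and treatment from their titles. These counts entered edgeR 4.0.16, run in R 4.3.3: filterByExpr used the groups, scaling was TMM, and the robust quasi-likelihood model had treatment and sex as terms, first with 8 libraries and then with the 6 at or above 10 CPM of MOG. Adjusted p values are Benjamini-Hochberg over all genes tested, with a threshold of 0.05, and all p values are two-sided. With 6 libraries each group holds 1 male. Regional differences were fitted in limma 3.58.1 (voom, animal as random block) over 24 or 22 cord libraries. The scripts were tested on simulated data. Alternatives were DESeq2 1.42.0, limma voom with and without sample quality weights, other scaling and filters, no sex term, a replicate block, SC5 libraries only, a MOG minimum of 100 CPM and leaving out each library; the 4 female libraries alone were added after seeing the data. No 2 libraries were duplicates (lowest chi-square per degree of freedom 37.9).

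Genes were named by a rule: the 10 smallest p per fit among genes with a mean of at least 1 CPM in either group, up to 4 members of each of 44 gene lists with the smallest p in the 6 libraries, the 3 members of each cell type list with the highest median level in cord, all members of both cholesterol arms, and TENT4A, TENT4B, ZCCHC14, TREM2, SERPINA3, WIF1, SLIT3, CXCL9 and STARD4. Some named genes are left out of the text. The members and lists were chosen with earlier results of these data known.

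Same-numbered control and treated libraries deviated together with 8 libraries (correlations 0.19 to 0.92, mean 0.60, against -0.10 for other numbers), which meets the rule used here for pairing although the animals differ; the pair without MOG shares number 1. With 6 libraries they did not (-0.12 to 0.33). With the replicate block, 8 libraries gave 679 genes at an unadjusted p under 0.05 in place of 250, and 0 passed adjustment.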

Additional observations from a re-analysis of the deposited data

Results flagged for a closer look

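Each group of 4 lumbar libraries was checked for a single library far from the other 3, over the genes whose values with 8 libraries are reported and a few more, and 13 of 148 groups were marked. Chance marks about 1 in 20 such groups. The measure is the gap to the nearest library as a share of the group's range.

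Control replicate 1, which nearly lacks cord markers, was the marked library for 9 genes. It was high for SREBF2 (324.6 CPM against 253.6 to 257.5; 0.945), CD68 (29.6 against 13.2 to 15.04; 0.89), CXCL9 (19.3 against 0.286 to 2.32; 0.893), IRF9 (44.5 against 34.8 to 36.3; 0.838), MSR1 (18.6 against 2.36 to 4.58; 0.864), SLAMF7 (1.71 against 0.095 to 0.279; 0.886) and CXCL12 (180.3 against 57.6 to 71.7; 0.885). It was low for MAG (133.9 against 355 to 390.1; 0.865) and HSPB8 (15.96 against 231 to 251; 0.918). Treated replicate 1, the other library without MOG, was low for SERPINA3 (19.3 against 318 to 379.8; 0.83) and GFAP (64.8 against 12613 to 13704; 0.92), and high for SLIT2 (382 against 19.3 to 42.04; 0.937). The remaining one was SC5D, a sterol desaturase, where treated replicate 3 held 150.5 CPM against 120.8 to 122.6 (0.937), below all 4 controls (172 to 276 CPM).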

How the results depend on the processing

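The number of lumbar genes past a threshold depended on the tool and on the libraries. At an adjusted p under 0.05 the 0 genes of edgeR with 8 libraries became 6 in DESeq2 and 2 in limma voom with quality weights. With 6 libraries 0 became 113, 633 and, with the SC5 libraries only, 492, a fit whose 4 libraries leave 1 residual degree of freedom. At an unadjusted p under 0.05, the 250 genes with 8 libraries became 2684 with quality weights, 679 with the replicate block, 661 in the 4 female libraries, 855 at the MOG minimum, and 114 to 432 without 1 library, the lowest without control replicate 3 (136 without control replicate 4) and the highest without treated replicate 1 (394 without control replicate 1 and 407 without treated replicate 4). The 855 with 6 libraries became 2895 with quality weights, 2732 in the SC5 libraries and 295 to 2811 without 1 library, with 295 without control replicate 3, 368 without control replicate 4 and 2811 without treated replicate 4, where the smallest adjusted p was 0.0541 and 0 genes passed. Treatment effects specific to the lumbar region stayed at 0 calls in every setting run, while the 204 at an unadjusted p under 0.05 became 137 in edgeR with animal as a fixed block and 50 to 631 without 1 replicate number (50 without replicate 2, 85 without replicate 3, 547 without replicate 1 and 631 without replicate 4).

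Of the reported genes' alternative values, with the SC5 fit among them, 1098 of 1239 with 6 libraries kept direction and side of the threshold, 133 kept direction and passed, and 8 changed sign. With 8 libraries these numbers were 631 of 646, 5 and 10. The SC5 libraries only, with 8 libraries as start, gave 0.24 for TENT4B, 1.25 for NEFH and 1.05 for SNAP25. Leaving out 1 library of 8 gave -2.58 to 0.16 for SNAP25 (positive without control replicate 2), -0.83 to 2.13 for GFAP (negative without treated replicate 2), -0.29 to 0.0051 for TENT4A, -0.24 to 0.16 for TENT4B and -0.23 to 0.090 for ZCCHC14. With 6 libraries the ranges were -0.37 to 0.080 for TENT4A, -0.50 to 0.13 for TENT4B and -0.31 to 0.17 for ZCCHC14. Quality weights gave 0.011 for TENT4B and 0.016 for ZCCHC14, and the SC5 libraries 0.020 for TENT4B. The causes were not tested.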
